A study of Mus musculus with 9 samples.

Results

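Bhmt encodes betaine-homocysteine methyltransferase, which makes methionine from homocysteine with betaine as the methyl donor. It is described here together with 8 other genes of the methionine cycle, Bhmt2, Mat1a, Mat2a, Mat2b, Ahcy, Cbs, Mtr and Gnmt, in the ovaries of 5 wild-type (WT) and 4 ERβKO mice. These 9 genes were picked by symbol from the 46078 genes of the deposited count table. Bhmt was picked because its level differed between these same ovaries, so its values are given as a description without a test. The others were picked for their place in the cycle, with earlier results of these data known. The question was whether Bhmt changed alone within the cycle when estrogen receptor β (ERβ) was lost.

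All mice were on the C57BL/6J strain background. ERβKO mice carried a germline deletion of exon 3 of Esr2, the gene of ERβ, which came from crossing floxed mice with a Rosa26-Cre deleter line, and the WT mice were offspring without Cre. Ages of 4 to 20 weeks are given for the study's mice as a whole and not for single ovaries, and ovaries were taken at any stage of the cycle. The labels list every ovary as untreated, although a protocol note attached to the same samples describes a high-fat or control diet and injections of an ERβ ligand or vehicle. RNA came from whole ovaries, so fewer cells of a type and less RNA per cell cannot be told apart. Nothing in the labels states the age, diet or cycle stage of any single ovary.

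The methionine cycle turns methionine into S-adenosylmethionine (SAM), the methyl donor of most methyltransferases. SAM gives up its methyl group and becomes S-adenosylhomocysteine, which is split to homocysteine. Homocysteine either regains a methyl group, through a folate-dependent enzyme or through betaine, or leaves the cycle towards cysteine. Betaine-dependent remethylation is best known from liver and kidney.

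Between 12353740 and 18717510 read pairs per ovary were assigned to genes. Esr2 itself had 12.4 to 23.9 FPKM in WT ovaries and 10.5 to 23.7 FPKM in ERβKO ovaries. Esr2 had a log2 fold change of -0.02 ± 0.24 (SE, edgeR quasi-likelihood test, Benjamini-Hochberg adjusted p = 0.966), and counts over the whole gene do not show a lost exon. Granulosa cell, luteal cell and oocyte marker genes were read in every library. FPKM, the unit used below for levels, is fragments per kilobase of gene, scaled to the mapped fragments of the library.

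Bhmt lies at chr13:93616891-93637961 on the minus strand (GRCm38), a span of 21.1 kb. In the WT ovaries its level was 53.1 FPKM in replicate 1, 0.429 in replicate 2, 5.33 in replicate 3, 34.6 in replicate 4 and 76.7 in replicate 5. In the ERβKO ovaries it was 0.115, 0.239, 0.417 and 0.551 FPKM in replicates 1 to 4. Thus 3 WT ovaries were high, 1 was intermediate, 1 was as low as the ERβKO ovaries, and the 2 genotypes overlapped through WT replicate 2 alone. That ovary lay below ERβKO replicate 4 and above the other 3 ERβKO ovaries. WT replicates 4 and 5, both high, carry library numbers above 200 in the labels, and no ERβKO ovary does. The labels do not say what these numbers stand for, and their part in the Bhmt level was not tested.

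The mean was 34.0 ± 32.2 FPKM (SD, n = 5) in WT and 0.331 ± 0.192 FPKM (SD, n = 4) in ERβKO ovaries, a ratio of 103. Without WT replicate 2 the ratio was 128. The log2 fold change in ERβKO was -6.72 with a standard error of 1.35, and no gene of the 16722 tested had a lower value. These figures describe the contrast for which Bhmt was picked.

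The spread between WT ovaries was itself very wide. The highest WT ovary held 179 times the level of the lowest, and the 3 highest ovaries made up 96.6% of the summed WT level. The standard deviation of log2 CPM (read pairs per 1000000 assigned) among the WT ovaries was 2.99, against a median of 0.20 over the tested genes, and 0 tested genes had a larger one. Among the ERβKO ovaries the highest level was 4.78 times the lowest. WT replicate 3, at 5.33 FPKM, was 6.5 times below the lowest of the 3 high WT ovaries and still 9.67 times above the highest ERβKO ovary.

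The counts behind the low values were small. WT replicate 2 had 25 Bhmt read pairs, or 1.51 per 1000000 (exact Poisson 95% interval 0.979 to 2.23). ERβKO replicates 1 to 4 had 8, 13, 18 and 23 read pairs, or 0.47 (0.203 to 0.925), 0.695 (0.37 to 1.19), 1.38 (0.815 to 2.17) and 1.66 (1.06 to 2.5) per 1000000. The interval of WT replicate 2 therefore overlapped those of ERβKO replicates 2, 3 and 4 and lay above that of replicate 1. WT replicate 3 had 267 read pairs, or 17.5 per 1000000 (15.5 to 19.7), and the 3 high WT ovaries had 1606 to 3212, with intervals that all lay above those of the ERβKO ovaries. These intervals cover counting error only.

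**Figure D1:**
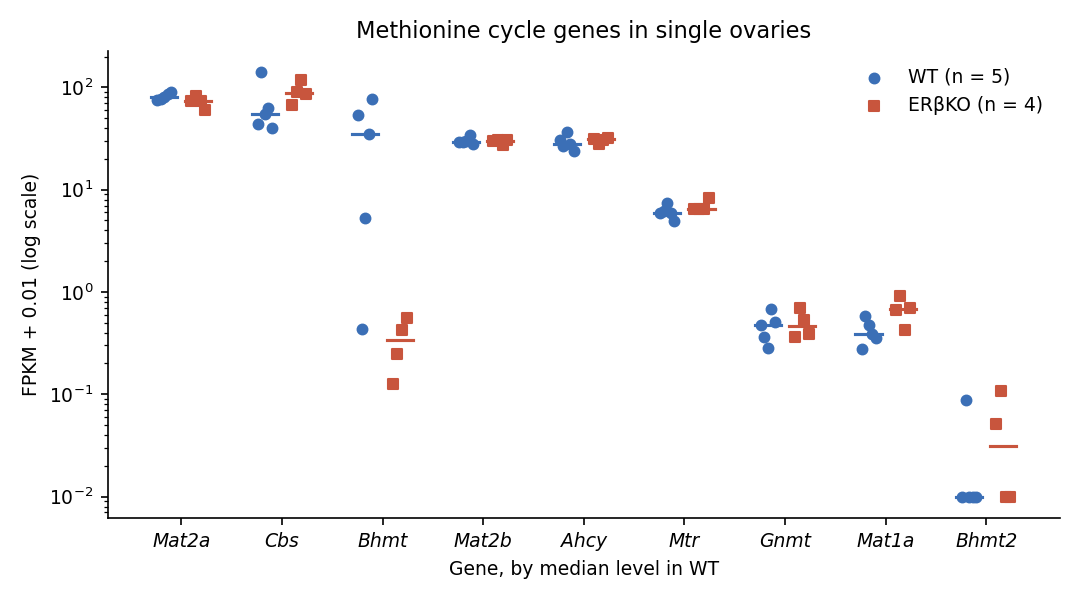
Level of each of the 9 methionine cycle genes in single ovaries. The vertical axis is FPKM plus 0.01 on a log scale, each point is 1 ovary (circles, 5 WT; squares, 4 ERβKO) and the short line is the group median. Bhmt spans 0.429 to 76.7 FPKM in WT ovaries and lies at or below 0.551 FPKM in ERβKO ovaries, whereas the other genes differ little between genotypes on this scale.

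The region upstream of Bhmt was searched for 3 short motifs on both strands. They were the full estrogen response element (ERE, the letters GGTCA and TGACC with any 3 bases between them), AAGGTCA and TTGCNNAA (a C/EBP site). AAGGTCA is the core of a longer site of the NR5A family of nuclear receptors, to which LRH-1 belongs. It also holds the letters of an ERE half-site. Windows of 250 bases before the RefSeq gene start (GRCm38.p6) were at hand for 8 members, and the window of Bhmt, at chr13:93637759-93638008 on the minus strand, held AAGGTCA at 2 places and neither other motif. The windows of the other 7 held none of the 3 motifs. Of all 32851 windows, 4.08% held AAGGTCA at least once and 0.128% at least 2 times, 9.56% held TTGCNNAA and 0.0639% the full ERE. The 2 places are shown because Bhmt is the only member with a match. They are read 5′ to 3′ on the minus strand with 7 bases on each side, and capitals mark the motif. The first is at chr13:93637818-93637838 and the second at chr13:93637793-93637813.
Bhmt, bases -80 to -60: ccagatcAAGGTCAgaggcct
Bhmt, bases -55 to -35: ttggacaAAGGTCAgtgtgca
Positions are counted from the RefSeq start. The GENCODE vM21 transcript starts 203 bases further upstream, so both stretches lie within its first exon, in the 5′ untranslated region. The motif that the study scanned for LRH-1 is longer and, read on this strand, has TC before AAGGTCA. The first stretch has TC there and the second has CA, and neither was scored against that longer motif. A match of letters is a description, and binding at these places was not tested here.

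Bhmt2, next to Bhmt at chr13:93655720-93674302 and 17.8 kb away, encodes an enzyme that uses S-methylmethionine as methyl donor. It was near the lower limit of detection in both genotypes. Its WT levels were listed at 0 FPKM in 4 ovaries, with 0 to 2 read pairs each, and at 0.0776 in replicate 2, and its ERβKO levels were 0.0418, 0.0965, 0 and 0 FPKM. No library held more than 7 of its read pairs, and it did not pass the filter on low counts. Of the 9 members, 8 passed that filter. The longest stretch of identical sequence between Bhmt and Bhmt2 transcripts was 59 bases and reads were pairs of 150 bases, and the pseudogene Bhmt-ps1, which shares up to 330 bases with Bhmt, had at most 2 read pairs in any library.

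Mtr encodes methionine synthase, the folate- and cobalamin-dependent enzyme that remethylates homocysteine alongside Bhmt. Its level was 5.86, 6.19, 7.37, 5.89 and 4.97 FPKM in the WT ovaries and 6.40, 6.44, 6.41 and 8.28 FPKM in the ERβKO ovaries. The groups overlapped, and WT replicate 2, which had almost no Bhmt, lay inside the range of the other WT values. Mtr showed a log2 fold change of 0.19 ± 0.12 (SE; 95% interval -0.07 to 0.45), which did not pass the test (edgeR quasi-likelihood test, Benjamini-Hochberg adjusted p = 0.393; exact permutation p = 0.175).

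The 3 remethylating enzymes can be set side by side because FPKM is scaled by gene length. Bhmt made up 90.1%, 6.41%, 42.0%, 85.5% and 93.9% of the summed FPKM of Bhmt, Bhmt2 and Mtr in WT replicates 1 to 5. In ERβKO replicates 1 to 4 it made up 1.76%, 3.53%, 6.12% and 6.24%. Bhmt was thus the larger transcript in 3 of the 5 WT ovaries, Mtr was the larger in all 4 ERβKO ovaries and in WT replicates 2 and 3, and the sum ranged from 6.70 to 81.7 FPKM in WT ovaries and from 6.56 to 8.84 FPKM in ERβKO ovaries. These shares are of transcript level and not of enzyme activity.

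Of the genes that make SAM, Mat2a (chr6:72432799-72439558) encodes the catalytic subunit found in most tissues, Mat2b (chr11:40679314-40695203) its regulatory subunit and Mat1a (chr14:41105381-41124412) the liver form. Mat2a was the most abundant member in the WT ovaries by median level. It had 74.6, 77.0, 81.0, 85.9 and 89.2 FPKM in WT ovaries and 74.3, 82.7, 73.6 and 60.4 FPKM in ERβKO ovaries. Part of its exons, 11.3% of their length, is shared with genes on the other strand, and the strand setting of the counting is not given in the sources used here. Its log2 fold change of -0.19 ± 0.09 (SE; 95% interval -0.39 to 0.01) did not pass the edgeR quasi-likelihood test (Benjamini-Hochberg adjusted p = 0.285; exact permutation p = 0.0952).

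Mat2b hardly varied, at 28.2 to 34.0 FPKM in WT ovaries and 27.3 to 30.9 FPKM in ERβKO ovaries. Mat2b had a log2 fold change of -0.08 ± 0.06 (SE; 95% interval -0.22 to 0.06, edgeR quasi-likelihood test, Benjamini-Hochberg adjusted p = 0.514). Mat1a was low throughout, with 0.268, 0.572, 0.462, 0.378 and 0.342 FPKM in the WT ovaries and 0.664, 0.900, 0.416 and 0.681 FPKM in the ERβKO ovaries. Of the ERβKO ovaries 3 lay above every WT ovary, and replicate 3 lay inside the WT range. Its log2 difference of 0.63 ± 0.26 (SE; 95% interval 0.05 to 1.21) rested on 14 to 72 read pairs per ovary. It did not pass after adjustment over all genes (edgeR quasi-likelihood test, Benjamini-Hochberg adjusted p = 0.221; exact permutation p = 0.0476, unadjusted). Mat2a made up 98.88% to 99.64% of the summed Mat1a and Mat2a level, so the liver form was the minor one in every ovary.

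Gnmt (chr17:46725664-46729168), which removes SAM by methylating glycine and is abundant in liver, was also low. It had 0.272 to 0.667 FPKM in WT ovaries and 0.356 to 0.683 FPKM in ERβKO ovaries, from 8 to 21 read pairs per ovary. Its log2 fold change of 0.05 ± 0.30 (SE) had a 95% interval of -0.62 to 0.71, so a change of moderate size was not detectable at this depth (edgeR quasi-likelihood test, Benjamini-Hochberg adjusted p = 0.951). Ahcy (chr2:155059310-155074497), which splits S-adenosylhomocysteine, had 30.3, 26.7, 36.7, 27.7 and 23.6 FPKM in WT ovaries and 31.5, 28.1, 30.6 and 32.0 FPKM in ERβKO ovaries. All 4 ERβKO values lay inside the WT range. For Ahcy the log2 fold change was 0.05 ± 0.11 (SE; 95% interval -0.19 to 0.29, edgeR quasi-likelihood test, Benjamini-Hochberg adjusted p = 0.831).

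Cbs (chr17:31612623-31637199) encodes cystathionine β-synthase, which commits homocysteine to cysteine synthesis. Its level was 43.9, 141, 54.5, 62.8 and 40.5 FPKM in the WT ovaries and 67.9, 89.3, 118 and 85.7 FPKM in the ERβKO ovaries. WT replicate 2, the ovary with almost no Bhmt, had the highest Cbs level of all 9, and the other 4 WT ovaries lay below every ERβKO ovary. Over all ovaries the means were 68.6 ± 41.7 FPKM (SD, n = 5) in WT and 90.2 ± 20.7 FPKM (SD, n = 4) in ERβKO. The log2 fold change of 0.39 ± 0.34 (SE; 95% interval -0.37 to 1.15) did not pass the test (edgeR quasi-likelihood test, Benjamini-Hochberg adjusted p = 0.567; exact permutation p = 0.254).

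Without WT replicate 2 the Cbs result changed side. The mean of the remaining 4 WT ovaries was 50.4 ± 10.2 FPKM (SD). The groups no longer overlapped, with 40.5 to 62.8 FPKM in WT against at least 67.9 FPKM in ERβKO ovaries. That follows from leaving out the only WT ovary that was not below every ERβKO ovary. In this set the log2 fold change was 0.83 ± 0.18 (SE), which passed (edgeR quasi-likelihood test, Benjamini-Hochberg adjusted p = 0.0297). Leaving out that ovary raised the share of all tested genes called from 1.72% to 5.56%, so this call stands against a larger background. Whether Cbs passed the test thus depended on 1 ovary.

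A gene was called when its adjusted p was under 0.05, its log2 fold change lay further than 0.4 from 0 and its mean level exceeded 1 FPKM in a genotype. By edgeR's quasi-likelihood test, 287 of the 16722 tested genes were called (1.72%), of which 153 were higher (0.915%) and 134 lower (0.801%) in ERβKO ovaries. Of the 7 members other than Bhmt that could be tested, 0 were called by edgeR and 0 by DESeq2, which called 4.8% of all tested genes (2.24% higher and 2.56% lower). At an unadjusted p under 0.05, 1 of the 7 (14.3%) passed, Mat1a, against 19.8% of all genes. The median log2 fold change of the 7 was 0.05, beside 0.00 for all genes, and 0 of the 7 had groups that did not overlap, against 7.96% of all genes.

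**Figure D2:**
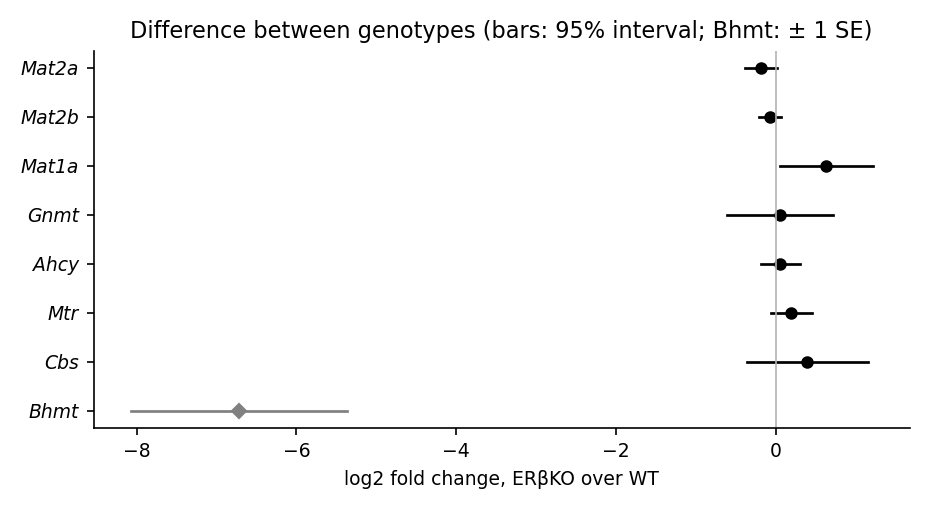
Log2 fold change of ERβKO over WT ovaries for the 8 members that passed the filter on low counts. Circles and black bars give the edgeR estimate with its 95% interval, and the grey diamond gives Bhmt with 1 standard error on each side, without a test because it was picked for this contrast. The 95% intervals of 6 of the 7 tested members include 0 and that of Mat1a starts at 0.05, while Bhmt lies at -6.72.

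By median WT level the order of the members was Mat2a (81.0 FPKM), Cbs (54.5), Bhmt (34.6), Mat2b (29.5), Ahcy (27.7), Mtr (5.89), Gnmt (0.464), Mat1a (0.378) and Bhmt2 (0). The WT ranges of neighbours overlapped from Mat2a through Ahcy and again between Gnmt and Mat1a. Ahcy and Mtr, Mtr and Gnmt, and Mat1a and Bhmt2 did not overlap. The range of Bhmt was wide enough to reach from below that of Mtr into that of Mat2a.

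Beyond the cycle itself, 68 genes of one-carbon metabolism were examined, covering choline and betaine handling, other methyl transfer, polyamines and methionine salvage, transsulfuration, the folate cycle and cobalamin. Of these, 66 passed the filter on low counts. By edgeR 0 were called, by DESeq2 4 (6.06%, against 4.8% of all genes), and 15 had an unadjusted p under 0.05 (22.7%, against 19.8%). Log2 fold changes were positive for 30 and negative for 36, with a median of -0.05, and 59 of the 66 lay within 0.5 of 0. Groups did not overlap for 4 of the 66, against 7.96% of all genes. The share of this list that passed each rule was close to that of all genes.

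The 4 genes called by DESeq2 alone were Gamt, Pcyt1a and Mthfd1l, lower in ERβKO ovaries, and Folr1, higher. Gamt (chr10:80258151-80261012) uses SAM to make creatine from guanidinoacetate. Its level was 32.3, 13.5, 27.4, 23.3 and 34.3 FPKM in the WT ovaries and 13.8, 11.9, 13.4 and 14.2 FPKM in the ERβKO ovaries. WT replicate 2 was again at the ERβKO level, and the other 4 WT ovaries were above it. Gamt had a log2 fold change of -0.99 ± 0.24 (SE, Benjamini-Hochberg adjusted p = 0.0592 by edgeR's quasi-likelihood test and 0.00162 by DESeq2). Without WT replicate 2 the value was -1.17 and the gene was called (edgeR quasi-likelihood test, Benjamini-Hochberg adjusted p = 0.00518). In that set edgeR called 5.56% of all tested genes, against 1.72% with every ovary kept.

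Pcyt1a makes CDP-choline for phosphatidylcholine synthesis, Mthfd1l makes formate from folate in mitochondria and Folr1 binds folate at the cell surface. The log2 fold change of Pcyt1a was -0.63 ± 0.20 (SE, Benjamini-Hochberg adjusted p = 0.130 by edgeR and 0.0422 by DESeq2). That of Mthfd1l was -0.47 ± 0.14 (SE, adjusted p = 0.115 by edgeR and 0.0352 by DESeq2), with groups that did not overlap. Folr1 had 36.3 ± 5.90 FPKM (SD, n = 5) in WT and 51.5 ± 8.81 FPKM (SD, n = 4) in ERβKO ovaries, and its log2 fold change was 0.44 ± 0.13 (SE, adjusted p = 0.105 by edgeR and 0.0352 by DESeq2). Neither tool called another gene of the list over all 9 ovaries.

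The most abundant gene of each of the 6 groups of the list was Aldh7a1, Ahcyl1, Odc1, Cdo1, Folr1 or Tcn2. Aldh7a1, which can make betaine from its aldehyde, had a log2 fold change of -0.10 ± 0.06 (SE) and Tcn2, a cobalamin carrier, one of -0.13 ± 0.10 (SE). Ahcyl1, a relative of Ahcy, was level between genotypes at 0.01 ± 0.06 (SE), and Odc1, which makes putrescine, had a value of -0.29 ± 0.09 (SE), below the size a call needed. Cdo1, which oxidizes cysteine, had 16.1, 13.8, 18.5, 25.8 and 20.9 FPKM in WT ovaries and 83.7, 30.5, 22.8 and 15.0 FPKM in ERβKO ovaries. Its mean was set mainly by ERβKO replicate 1, and its log2 fold change of 0.97 ± 0.42 (SE) did not pass (edgeR quasi-likelihood test, Benjamini-Hochberg adjusted p = 0.235).

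Gldc, a subunit of the mitochondrial glycine cleavage system, was noticed after its values were seen. It had 9, 20, 5, 21 and 26 read pairs in the WT and 1, 2, 3 and 3 in the ERβKO ovaries. The groups did not overlap, which held for 4 of the 66 tested genes of the list, against 7.96% of all tested genes. The mean level of Gldc, 0.214 FPKM in WT ovaries and 0.0218 FPKM in ERβKO ovaries, was below the 1 FPKM that a call needed. Gldc had a log2 fold change of -2.89 ± 0.60 (SE, edgeR quasi-likelihood test, Benjamini-Hochberg adjusted p = 0.0393).

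The levels of Bhmt were set beside markers of the cells an ovary can hold. The summed FPKM of 10 luteal cell markers was 3130 to 6740 in WT and 2590 to 4080 in ERβKO ovaries. These genes were read for the corpus luteum, and those of steroid synthesis need not be confined to it. None of these markers was at 0 in any library. Of the 10, 9 had a negative log2 fold change with a median of -0.86, 0 were called by edgeR, 3 by DESeq2 (Star, Cyp11a1 and Parm1, 30.0% against 4.8% of all genes) and 5 had an unadjusted p under 0.05 (50.0% against 19.8%). Star, which brings cholesterol into mitochondria, had 217, 73.8, 184, 187 and 324 FPKM in WT ovaries and 66.5, 35.0, 85.4 and 26.7 FPKM in ERβKO ovaries.

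Among the WT ovaries the summed luteal level followed the order of Bhmt. It was 6740 FPKM in replicate 5, 6220 in replicate 1, 4170 in replicate 4, 3910 in replicate 3 and 3130 in replicate 2. The steps were of different size, since Bhmt in the same ovaries was 76.7, 53.1, 34.6, 5.33 and 0.429 FPKM. The mean of the 10 markers on the log2 CPM scale, which weighs every marker equally, gave another order, with 9.60, 9.57, 8.65, 8.53 and 8.63. Hsd3b1 and Cyp11a1 made up most of the summed level, with 3494 and 1851 FPKM in replicate 5 and 1514 and 872 FPKM in replicate 2. Of the single markers only Star and Prlr ranked the WT ovaries as Bhmt did. Lhcgr and Scarb1 were lowest in replicate 3 and Akr1c18 in replicate 4, and Sfrp4 was highest in replicate 2.

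ERβKO replicate 3 did not follow the order of the WT ovaries. Its summed luteal level of 4080 FPKM lay within the WT range, as did 8 of its 10 single luteal markers, whereas its Bhmt level was 0.417 FPKM. Star (85.4 FPKM), Hsd3b1 (1690) and Prlr (35.8) lay within that range only through WT replicate 2, the WT ovary lowest in Bhmt. That ovary had 73.8, 1510 and 30.8 FPKM of them, and the other WT ovaries had at least 184, 2250 and 36.5 FPKM. Of the 2 markers outside the WT range, Parm1 was below it, and Akr1c18, which breaks down progesterone, was above it at 471 FPKM. Cyp17a1, a theca cell marker, was also higher in this ovary than in any other, at 472 FPKM. How much of the Bhmt difference goes with the number or state of luteal cells was not tested.

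**Figure D3:**
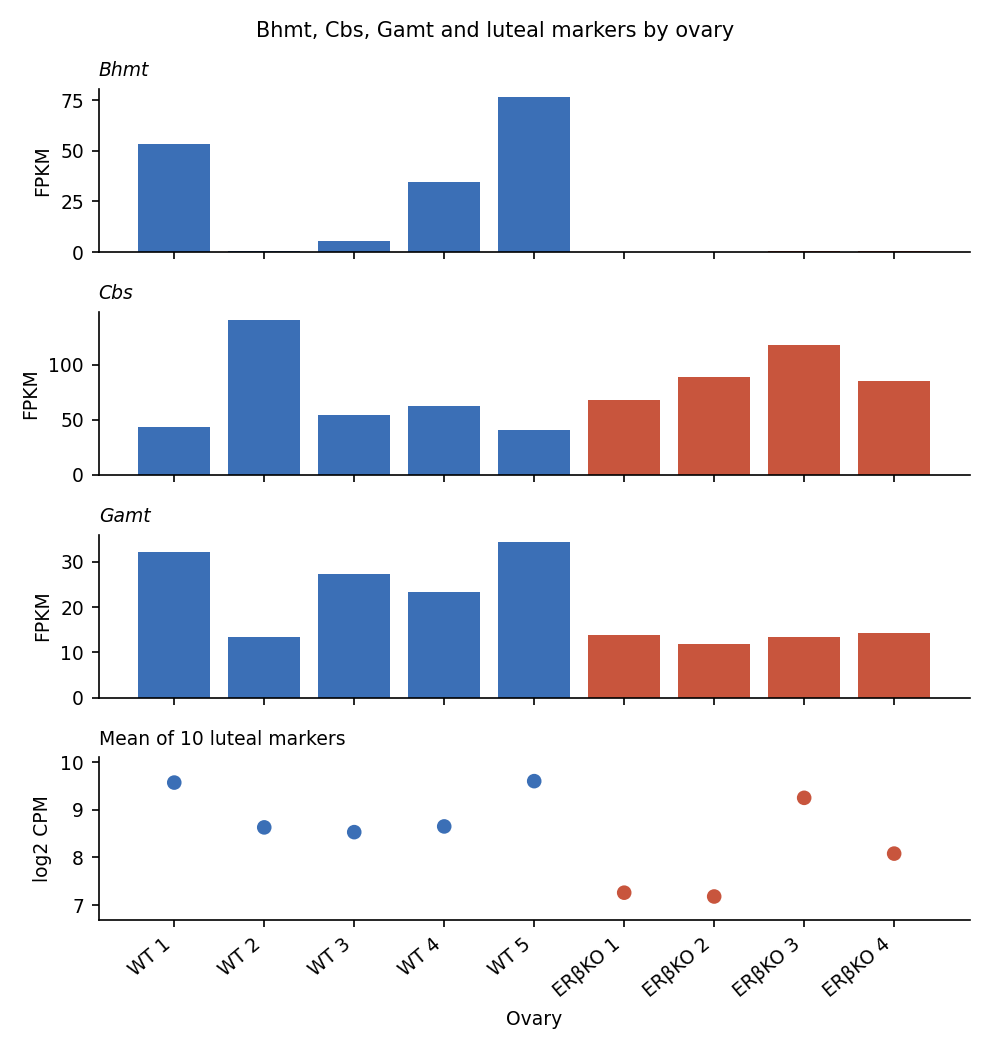
Bhmt, Cbs and Gamt levels and the mean of 10 luteal markers in the same 9 ovaries. Bars give FPKM per ovary from 0 and points give mean log2 CPM (blue, WT; red, ERβKO). WT replicate 2 has 0.429 FPKM of Bhmt, 141 FPKM of Cbs and 13.5 FPKM of Gamt, and ERβKO replicate 3 has a luteal mean of 9.25 with 0.417 FPKM of Bhmt.

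The other marker lists are given for comparison, and their part in the Bhmt difference was not tested. Of 10 granulosa cell markers, 9 had a positive log2 fold change and 2 rose by edgeR's quasi-likelihood test, Inhbb and Hsd17b1, against 0.915% of all genes. Hsd17b1 lost its call in 9 of 18 alternatives. DESeq2 called 5 of the 10 (50.0%, against 4.8% of all genes), and 5 had an unadjusted p under 0.05 (50.0%, against 19.8%). The summed level of the list was 809 to 1050 FPKM in WT ovaries and 1120 to 1500 FPKM in ERβKO ovaries. Of 5 theca cell markers 4 were tested, of which 0 were called by edgeR (1 had an unadjusted p under 0.05) and 0 by DESeq2, and Cyp17a1 ranged from 1.82 to 128 FPKM in WT ovaries and from 50.0 to 472 FPKM in ERβKO ovaries. Of 10 oocyte markers 9 were tested and 0 were called by either tool, with 0 at an unadjusted p under 0.05.

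Because Bhmt is known as a liver gene, hepatocyte markers were read as well. Only 2 of 10 passed the filter on low counts, and the summed level was 8.95 to 22.2 FPKM in WT ovaries and 17.9 to 24.0 FPKM in ERβKO ovaries. WT replicate 5, with the most Bhmt, had 11.2 FPKM of hepatocyte markers in all, and ERβKO replicate 4, with 0.551 FPKM of Bhmt, had 24.0 FPKM. Most of these sums was 1 gene, Apoa1, with 8.46 and 21.6 FPKM in those ovaries. Alb, which defines hepatocytes, was at most 0.697 FPKM in any ovary, and Ttr was listed at 0 in 8 of 9.

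Cebpa and Nr5a2, the genes of a C/EBP and an NR5A factor, were read for context. Cebpa had 4.18, 6.04, 5.18, 4.18 and 4.28 FPKM in WT ovaries and 12.9, 10.2, 12.3 and 5.51 FPKM in ERβKO ovaries. It rose with a log2 fold change of 1.09 ± 0.22 (SE, edgeR quasi-likelihood test, Benjamini-Hochberg adjusted p = 0.0363). This call was lost in 10 of 18 alternatives, among them leaving out WT replicate 1, 4 or 5 or ERβKO replicate 1, 2 or 3 and the replicate block (adjusted p = 0.0804), and the adjusted p reached 0.180. The 8 adipocyte markers, none of them at 0, had a median log2 fold change of 1.40, with 0 called by edgeR, 3 by DESeq2 (37.5%, against 4.8% of all genes) and 8 of 8 at an unadjusted p under 0.05, against 19.8% of all genes. Their summed level was 139 to 267 FPKM in WT ovaries and 158 to 1030 FPKM in ERβKO ovaries, and their part in the Cebpa difference was not tested. Nr5a2, which encodes LRH-1, had a log2 fold change of 0.11 ± 0.16 (SE, edgeR quasi-likelihood test, Benjamini-Hochberg adjusted p = 0.742).

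Genes near Bhmt on chromosome 13 were compared to see whether the difference spread along the locus. Within 1 Mb on either side the files list 25 other genes, of which 13 were tested and 2 fell in ERβKO ovaries by edgeR, against 0.801% of all tested genes. Gm15622, on the other strand within Bhmt, had at most 3 read pairs. Thbs4, a matrix protein gene 822 kb away, fell by 2.93 ± 0.22 on the log2 scale (SE, edgeR quasi-likelihood test, Benjamini-Hochberg adjusted p = 0.000462). Its levels were 22.9 to 43.0 FPKM in WT ovaries and 3.35 to 5.56 FPKM in ERβKO ovaries, and WT replicate 2 had 27.9 FPKM, inside the range of the other WT ovaries. Arsb, the lysosomal arylsulfatase B gene 134 kb away, fell by 0.71 ± 0.14 on the log2 scale, from a mean of 39.1 to 24.3 FPKM (edgeR quasi-likelihood test, Benjamini-Hochberg adjusted p = 0.0317). The Arsb call was lost in 6 of 18 alternatives, which left out WT replicate 1 or 5, ERβKO replicate 2, 3 or 4, or WT replicates 4 and 5 together (adjusted p = 0.0745 to 0.109 by edgeR), and that of Thbs4 was kept in all 18 alternatives. Unlike Bhmt, both separated the genotypes without overlap in all 9 ovaries, as did Homer1, described next, and 7.96% of all tested genes.

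The nearest tested genes on each side did not pass edgeR's test apart from Arsb. Jmy, 117 kb to the lower side, had a log2 fold change of -0.11 ± 0.08 (SE, adjusted p = 0.503) and Homer1, 213 kb to that side, one of -0.53 ± 0.13 (SE, adjusted p = 0.0659, and 0.0062 by DESeq2, which called it). Dmgdh, 36.5 kb to the upper side and the gene of the enzyme that oxidizes dimethylglycine, the product that Bhmt leaves from betaine, had 0.149 FPKM in WT ovaries and 0.196 FPKM in ERβKO ovaries. Its log2 fold change was 0.44 ± 0.47 (SE, edgeR quasi-likelihood test, Benjamini-Hochberg adjusted p = 0.647).

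**Figure D4:**
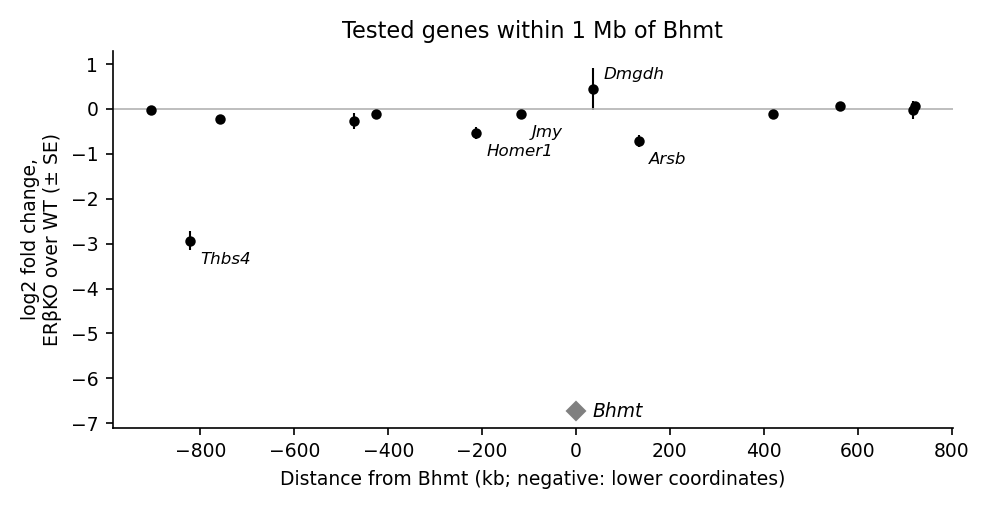
Log2 fold change of ERβKO over WT for the 13 tested genes within 1 Mb of Bhmt, by distance in kb (negative for lower coordinates), with bars of 1 standard error. Bhmt is the grey diamond at distance 0. Only Thbs4 and Arsb were called by edgeR, and the uncalled genes lie between -0.53 and 0.44.

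Genes whose levels followed those of Bhmt from ovary to ovary were ranked by the root mean square difference of centred log2 CPM over the 9 ovaries, among 14172 genes with a mean over 1 FPKM in at least 1 genotype. The 5 closest were Mmel1 (0.86), Kcnj16 (1.24), Ssu2 (1.38), Runx2 (1.61) and Ces2a (1.79), against a median of 3.32 over the candidates. A gene at the same level in every ovary would also score 3.32, the root mean square of the centred Bhmt profile itself. The measure was not scaled, so it favoured genes with a large difference between genotypes. This ranking is a description over 9 ovaries that include the contrast for which Bhmt was picked, and the order within WT ovaries was part of it. Mmel1, a gene of a membrane metallopeptidase, had 10.9, 0.732, 2.24, 9.98 and 21.8 FPKM in WT ovaries and 0.0863, 0.0924, 0.557 and 0.314 FPKM in ERβKO ovaries. Runx2, a transcription factor gene, had 36.8, 7.52, 11.1, 30.7 and 54.0 FPKM in WT ovaries and 2.22, 1.55, 2.59 and 2.90 FPKM in ERβKO ovaries.

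Mmel1 and Runx2 ranked the WT ovaries in the same order as Bhmt, with replicate 5 highest, then 1, 4 and 3, and replicate 2 lowest. Kcnj16, a potassium channel gene, and Ces2a, a carboxylesterase gene, were lowest in WT replicate 3 instead, and Ssu2 placed replicate 4 above replicate 1. In Mmel1, Ssu2 and Runx2 the low WT replicate 2 was still above every ERβKO ovary, whereas for Bhmt it was not.

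**Figure D5:**
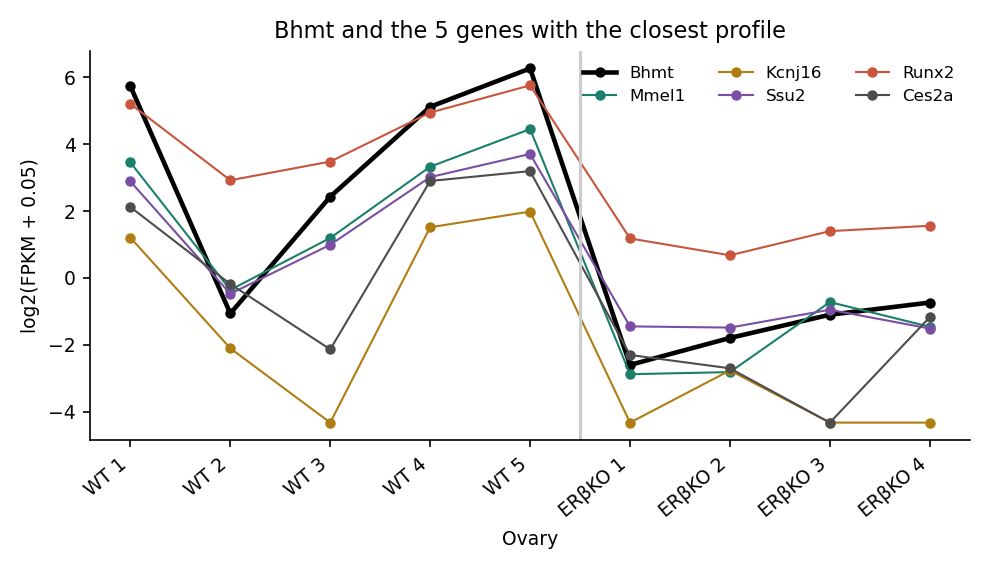
Bhmt and the 5 genes with the closest profile over the 9 ovaries, as log2 of FPKM plus 0.05. Each point is 1 ovary and the grey line separates WT from ERβKO. All 6 genes are high in WT replicates 1, 4 and 5 and low in WT replicate 2 and in the ERβKO ovaries.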

How the data were processed

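RNA-seq libraries were made from polyadenylated RNA of 9 whole mouse ovaries (5 WT, 4 ERβKO), 1 library each, with a stranded kit and read pairs of 150 bases. Per the submitters' processing notes the authors used bcl2fastq 2.20.0.422, CASAVA, Trim Galore, STAR, featureCounts and StringTie with mm10 (GRCm38). The deposited counts are whole read pairs per gene without normalization. The strand setting of the counting is not given in the sources used here. The deposited FPKM values were calculated by the authors with StringTie for each library. The deposited TPM and coverage values of the same files were not used for a result.

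Groups came from the labels. The members, the gene lists and the tests were chosen with earlier results of these data known. Where several rows carried a symbol, the one with the highest summed count was taken. Counts were filtered with filterByExpr (16722 of 46078 genes kept), normalized by TMM and compared with edgeR 4.0.16's quasi-likelihood test in R 4.3.3, with Benjamini-Hochberg adjustment over all tested genes. The thresholds of a call (adjusted p under 0.05, log2 fold change beyond 0.4 either way, mean FPKM above 1 in a genotype) are those of the study, whose tool DESeq2 (1.42.0) was an alternative. Standard errors came from the log2 fold change and the F statistic. The common biological coefficient of variation was 0.179. Two-sided exact permutation tests of log2 CPM used all 126 splits of the ovaries, with a smallest possible p of 0.0159. Nothing in the labels ties an ovary of one genotype to one of the other, and p-values set the difference between genotypes against the spread between these ovaries. The fits were tested on simulated data with known changes.

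Genes named in the text were all members, Cebpa, Esr2 and Nr5a2, every one-carbon gene called by either tool with the most abundant of each group, called genes within 1 Mb of Bhmt with the 2 nearest tested on each side, the 5 nearest profiles and defining markers. Sequences are from RefSeq promoter windows and GENCODE vM21. Alternatives were DESeq2, RLE and upper-quartile factors, no filter, a minimum of 10 counts per library, a replicate block, leaving out each library, only libraries numbered below 200 in the labels (without WT replicates 4 and 5), and limma 3.58.1 on log2 FPKM with pseudocounts of 1 and 0.1. Tables were handled in Python 3.11.15 with pandas 2.3.3, NumPy 2.4.6 and SciPy 1.17.1.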

Additional observations from a re-analysis of the deposited data

Results flagged for a closer look

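In 4 of the 18 groups of ovaries formed by the 9 members and the 2 genotypes, 1 ovary stood apart from the others by Dixon's criterion. For normally distributed values chance alone meets it in about 1 of 20 groups, a rate that need not hold here. Cbs in WT replicate 2 was 141 FPKM, against 40.5 to 62.8 FPKM in the other 4 WT ovaries. Bhmt2 in the same ovary was 0.0776 FPKM, against 0 FPKM in the other WT ovaries, and this rested on 5 read pairs. With all other values at 0, any level above 0 meets the criterion. Mat2b in WT replicate 4 was 34.0 FPKM, against 28.2 to 29.7 FPKM in the other WT ovaries. Mtr in ERβKO replicate 4 was 8.28 FPKM, against 6.40 to 6.44 FPKM in the other ERβKO ovaries. Bhmt itself met the criterion in neither genotype, since its WT values were spread over the whole range.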

How the results depend on the processing

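The Bhmt log2 fold change kept its direction under all 17 alternatives, from -7.04 to -6.15 with single ovaries left out. Among libraries numbered below 200, without WT replicates 4 and 5, it was -5.86. With limma on log2 FPKM and a pseudocount of 1 it was -3.67, since a pseudocount of 1 lies above all ERβKO levels. It could not be computed with at least 10 counts in every library, because ERβKO replicate 1 had 8, and Gnmt was left out there too. The number of other cycle members called was 0 to 1 with single ovaries left out. The 1 was Cbs, at a log2 fold change of 0.83 without WT replicate 2, and it was 0 under the 9 other settings. The number of one-carbon genes called was 4 by DESeq2, 1 with no filter (Gamt) and 0 to 1 with single ovaries left out, the 1 being Gamt without WT replicate 2 and Cth without ERβKO replicate 1. All genes called numbered 287 by edgeR, 802 by DESeq2, 51 with libraries numbered below 200, 191 by limma with a pseudocount of 1, and 60 (without ERβKO replicate 2) to 919 (without WT replicate 2) with single ovaries left out. Values near 0 changed sign. Ahcy went from 0.052 to -0.038 with libraries numbered below 200 and ranged from -0.007 (without WT replicate 5) to 0.141 with single ovaries left out. Gnmt ranged from -0.070 to 0.23 there, and was negative at -0.028, -0.067, -0.070 and -0.059 without WT replicate 2, WT replicate 3, ERβKO replicate 1 and ERβKO replicate 3. Mat1a, Mat2a, Mat2b and Mtr kept direction and side throughout. The cause of these shifts was not tested. 

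Replicate numbers did not pair the ovaries (correlations of deviations 0.095, 0.13, -0.043 and -0.011 for numbers 1 to 4). With the number as a replicate block, the Bhmt value was -5.65, 155 genes were called in all and 0 other members of the cycle and 0 one-carbon genes. No ERβKO ovary has the number of WT replicate 5, so in that fit this ovary adds nothing to the genotype difference. Depth limits Bhmt2, Gnmt and Mat1a, whose counts were at most 7, 21 and 72 per ovary.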
